A study of Mus musculus with 10 samples.

Results

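The 10 marker genes, 5 of portal fibroblasts (*Thy1*, *Cd34*, *Clec3b*, *Entpd2* and *Fbln2*) and 5 of the mesothelium (*Msln*, *Upk3b*, *Lrrn4*, *Slpi* and *Dmkn*), were followed in each library of hypHSCs and qHSCs. They were taken by symbol, and all 10 were found among the 25233 entries with a gene symbol. RNA sequencing was done on 5 preparations of hypHSCs and 5 of qHSCs, with 1 library each. Hypertrophic hepatic stellate cells (hypHSCs) came from male C57BL/6J mice fed the CDAHFD, a choline-deficient and high-fat diet, for 13 weeks up to an age of 19 weeks (hypHSC 1 and 2) or for 12 weeks up to an age of 18 weeks (hypHSC 3, 4 and 5). Quiescent cells (qHSCs) were from mice kept on standard diet, at an age of 36 weeks (qHSC 1, 2 and 5) or 34 weeks (qHSC 3 and 4). All cells were sorted on the autofluorescence of their lipid droplets, but the sorting gate and the digestion of the liver were adapted to the diet. Diet, age, digestion and gate therefore cannot be told apart. The mouse behind each library is not given in the sources used here, so n counts preparations, and p-values measure the spread between them.

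Portal fibroblasts are the fibroblasts of the connective tissue around the portal vein and bile ducts, whereas HSCs lie along the sinusoids of the lobule. Mesothelial cells form the epithelium that covers the liver surface, and they carry keratins as well as mesenchymal genes. Markers of both are used to tell these cells from HSCs, since all of them can contribute to matrix-producing cells in a diseased liver. Several of these markers are not exclusive to the cell type they are used for. *Cd34* is also made by endothelial and blood progenitor cells, and *Slpi* by epithelia and phagocytes.

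The libraries held 30534719 to 47317028 reads on genes with a symbol. Values are normalized counts, i.e. reads divided by the size factor of the library. A value of 3 reads or fewer was taken as the floor of detection, which was 2.25 to 4.54 normalized counts depending on the library and covers counting error only. Mitochondrial genes held 2.21% to 12.8% of the reads of hypHSCs, highest in hypHSC 1, and 1.25% to 1.61% of those of qHSCs. No pair of libraries of a group agreed within sampling noise (chi-square per gene of at least 61.5). In these bulk samples, more cells of a type and more RNA per cell cannot be told apart.

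*Cd34*, *Fbln2*, *Lrrn4*, *Slpi* and *Dmkn* rose in hypHSCs, and the 250 bases before their transcription start are shown because these 5 members were called in the same direction between the groups. Such windows were found in the RefSeq promoter table for 7 of the 10 members. The positions in the sequence lines refer to GRCm38.p6, an older build than the GRCm39 positions of the genes given with their values. Sequences run 5′ to 3′ in the direction of the gene, and capitals mark a GC box (GGGCGG), an AP-1 site (TGANTCA), a TEAD site (GGAATG), a PU.1-type ETS site (GAGGAA) or a TATA box (TATAAA), each on either strand.
Cd34 promoter, chr1:194938571-194938820, plus strand: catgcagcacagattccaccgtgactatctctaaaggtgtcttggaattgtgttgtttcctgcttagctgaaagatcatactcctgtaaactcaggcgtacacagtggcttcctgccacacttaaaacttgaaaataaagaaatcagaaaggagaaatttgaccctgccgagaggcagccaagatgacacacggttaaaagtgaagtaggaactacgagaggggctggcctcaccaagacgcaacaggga
Fbln2 promoter, chr6:91212514-91212763, plus strand: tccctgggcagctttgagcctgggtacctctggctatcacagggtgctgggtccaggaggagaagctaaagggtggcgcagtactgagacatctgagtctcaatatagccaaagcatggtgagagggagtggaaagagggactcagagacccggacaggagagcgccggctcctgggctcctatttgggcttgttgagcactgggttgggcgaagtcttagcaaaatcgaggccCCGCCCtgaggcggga
Lrrn4 promoter, chr2:132880863-132881112, minus strand: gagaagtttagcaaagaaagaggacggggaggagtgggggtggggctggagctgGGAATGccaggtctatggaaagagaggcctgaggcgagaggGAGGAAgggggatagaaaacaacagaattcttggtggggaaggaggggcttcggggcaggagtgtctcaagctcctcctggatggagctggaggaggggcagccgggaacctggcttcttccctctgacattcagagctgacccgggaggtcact
Slpi promoter, chr2:164356508-164356757, minus strand: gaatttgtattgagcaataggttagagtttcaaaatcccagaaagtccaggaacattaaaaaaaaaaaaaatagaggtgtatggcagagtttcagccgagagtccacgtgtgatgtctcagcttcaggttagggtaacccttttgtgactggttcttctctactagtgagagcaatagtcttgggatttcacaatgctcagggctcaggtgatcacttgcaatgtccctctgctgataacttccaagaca
Dmkn promoter, chr7:30763506-30763755, plus strand: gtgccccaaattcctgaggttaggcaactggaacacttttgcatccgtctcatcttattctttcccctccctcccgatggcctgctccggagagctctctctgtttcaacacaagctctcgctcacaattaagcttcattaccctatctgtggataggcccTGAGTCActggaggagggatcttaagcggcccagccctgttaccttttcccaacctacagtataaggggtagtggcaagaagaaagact
None of these letters occurred in the windows of *Cd34* and *Slpi*. *Fbln2* had a GC box, which was found in 32.97% of all 32536 windows of this length. *Lrrn4* had a TEAD site (12.6% of windows) and an ETS site (23.4%). *Dmkn*, for which the first of 3 RefSeq windows is shown, had an AP-1 site in each of them, as did 6.73% of windows, and none of these 5 windows held the TATA box, which 12.3% of windows did. Thus none of the motifs searched was shared by the windows of the members that rose. The windows of *Slpi* and *Cd34* held 42.0% and 46.4% G and C, that of *Dmkn* 50.8%, and those of *Fbln2* and *Lrrn4* 58.8% and 59.2%, around a median of 52.4% over all windows. A match of letters is a description of the window and not evidence that a factor binds there.

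Of the 10 members, 6 reached at least 10 normalized counts in at least 5 libraries and were tested with limma. Called genes had a log2 fold change of at least 1 in either direction and an adjusted p of at most 0.05. In hypHSCs, 5 members were called higher and 0 lower, and *Entpd2* was not called. Among all 14630 genes tested, 17.8% were called higher and 21.7% lower, and the median log2 fold change was -0.20. On whole reads, recovered by undoing the size factors, DESeq2 and edgeR called 5 and 4 of the 6 higher and 0 lower, where 19.6% and 19.0% of all genes were called higher and 20.2% and 17.4% lower. *Thy1*, *Clec3b*, *Msln* and *Upk3b* were too low to be tested. *Fbln2* and *Dmkn* were kept mainly or only through their values in hypHSCs, since 1 and 0 qHSC libraries reached 10 normalized counts. The number called among the 6 is therefore a description of these genes.

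**Figure D1:**
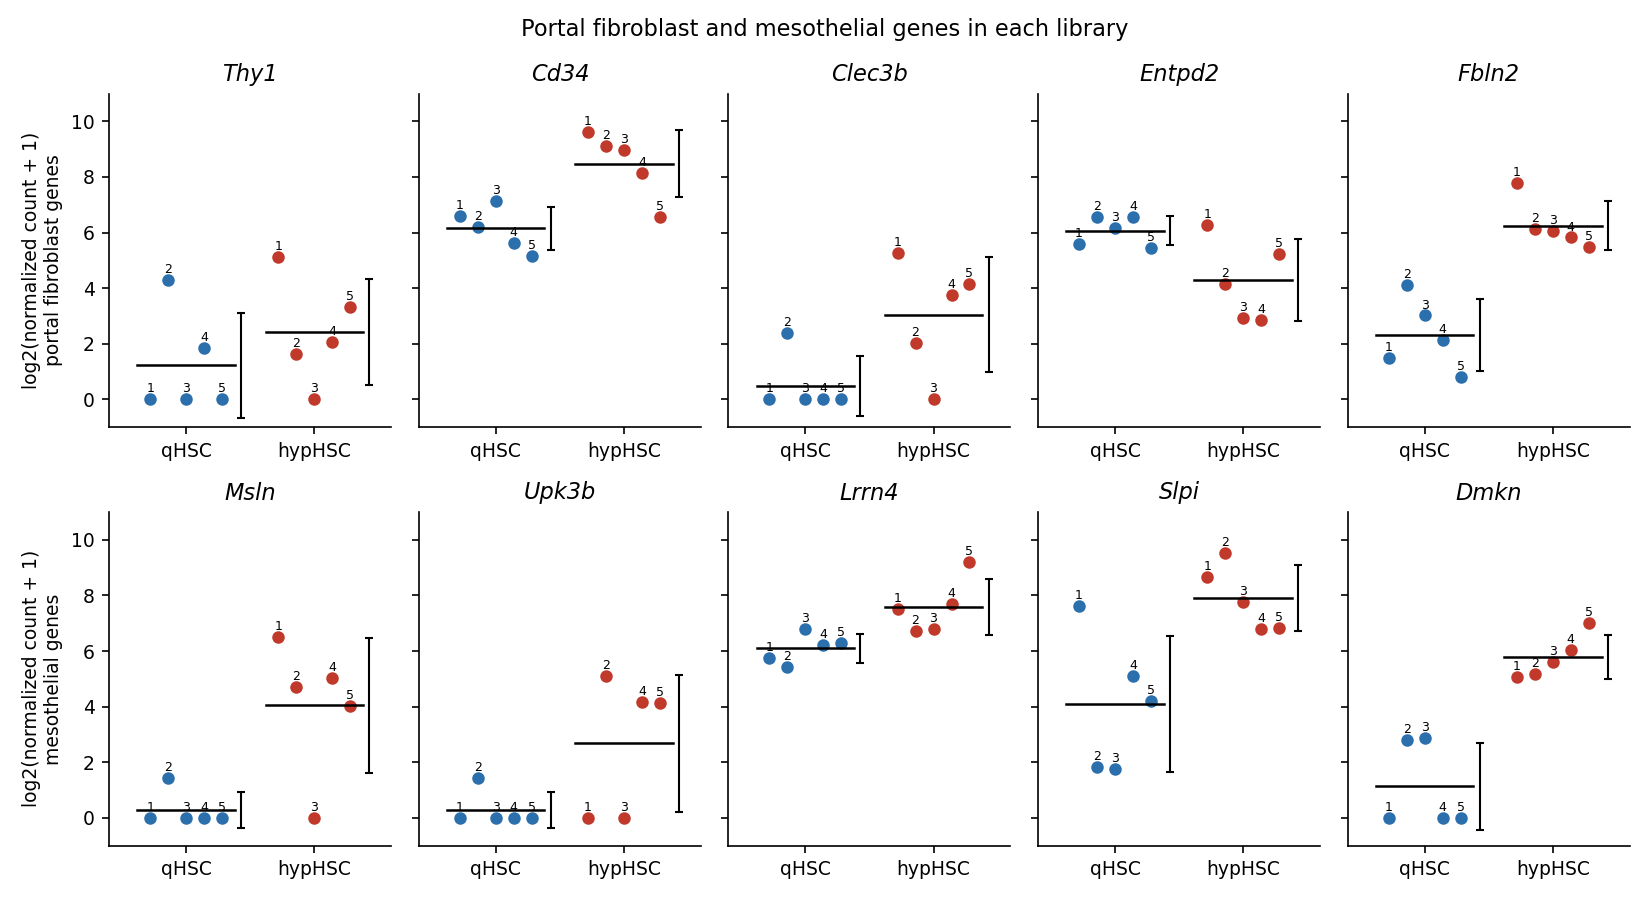
Expression of the 10 members in each library as log2(normalized count + 1), with portal fibroblast genes in the upper row and mesothelial genes in the lower row. Points are libraries numbered by replicate (blue, qHSC; red, hypHSC), horizontal lines are group means and bars the SD (n = 5), and the groups are fully separated for *Fbln2* and *Dmkn* only.

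Among the portal fibroblast genes, *Fbln2* and *Cd34* rose, *Entpd2* had a lower mean without being called, and *Thy1* and *Clec3b* were near the floor. *Fbln2* encodes fibulin-2, an extracellular glycoprotein that binds elastic fibres and basement membranes, and lies on chr6:91189435-91249522 (GRCm39, plus strand). It was present at 217, 68.3, 64.9, 55.6 and 43.9 normalized counts in hypHSC 1 to 5, and at 1.81, 16.2, 7.09, 3.42 and 0.75 in qHSC 1 to 5. All hypHSC libraries were above all qHSC libraries, and hypHSC 1 stood well above the other hypHSCs. The mean was 89.9 ± 71.6 against 5.85 ± 6.26 normalized counts (SD, n = 5 each). The log2 fold change was 3.93 (SE 0.71, limma adjusted p = 0.000906), and the exact two-sided permutation p was 0.00794, the smallest that 5 against 5 libraries can give. Non-overlapping groups with the higher values in hypHSCs were found for 17.6% of genes tested and 13.7% of those with any read, and the reverse for 22.0% of genes tested.

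*Cd34* encodes a sialomucin of the cell surface and lies on chr1:194621129-194643600 (plus strand). Its normalized counts were 778, 550, 501, 280 and 92.3 in hypHSC 1 to 5, and 96.8, 72.4, 139, 48.8 and 34.5 in qHSC 1 to 5. Except hypHSC 5, which was below qHSC 1 and qHSC 3, the hypHSC libraries were above every qHSC library. With means of 440 ± 263 and 78.4 ± 41.5 (SD, n = 5 each), the log2 fold change was 2.33 (SE 0.59, limma adjusted p = 0.00689; exact two-sided permutation p = 0.0238). With the hypHSCs at 12 weeks only, the log2 fold change of *Cd34* was 1.74 and the call was lost (limma adjusted p = 0.0516, against 2.82e-05 to 0.0516 over the alternatives other than leaving out a library).

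*Cd34* is also an endothelial gene. The 12 endothelial genes looked at were summed to 635 to 1092 normalized counts in hypHSCs and to 1683 to 3119 in qHSCs, but they went in both directions. Of the 10 tested, *Vwf* and *Stab2* were called higher, *Clec4g*, *Egfl7*, *Tek* and *Tie1* were called lower, and 4 were not called. Among all genes tested, 17.8% were called higher and 21.7% lower. *Vwf*, encoding von Willebrand factor, was at 141 ± 17.2 in hypHSCs against 8.09 ± 5.18 normalized counts in qHSCs (SD, n = 5 each), with a log2 fold change of 4.16 (SE 0.49, limma adjusted p = 4.51e-05). *Clec4g*, a lectin of sinusoidal endothelium and the most abundant of the list in qHSCs, was at 173 ± 113 against 1166 ± 378 normalized counts, a fall by 2.95 on the log2 scale (SE 0.45, limma adjusted p = 0.000273). *Pecam1*, found in all endothelium, was at 35.1 ± 15.8 against 60.7 ± 83.8 normalized counts and was not called (limma adjusted p = 0.687). The part of endothelial cells in the level of *Cd34* was not tested.

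*Entpd2* encodes an ectonucleotidase that cleaves extracellular ATP and is a marker of portal fibroblasts around bile ducts (chr2:25285886-25291335, plus strand). It was present at 76.8, 16.6, 6.65, 6.29 and 36.3 normalized counts in hypHSC 1 to 5 and at 47.1, 93.7, 70.9, 92.4 and 42.7 in qHSC 1 to 5. Except hypHSC 1, which lay within the range of the qHSCs, the hypHSC libraries were below every qHSC library. The mean was 28.5 ± 29.6 against 69.4 ± 24.2 normalized counts (SD, n = 5 each), with a log2 fold change of -1.78 (SE 0.68) and a limma adjusted p of 0.0510, just short of the threshold (exact two-sided permutation p = 0.0397). Without hypHSC 1 the log2 fold change was -2.27 and *Entpd2* was called lower (limma adjusted p = 0.0108). The adjusted p ranged from 0.0108 to 0.110 with each library left out, and without hypHSC 5 it was also called (-2.01). In the GENCODE annotation, 21.6% of the exon bases of *Entpd2* also belong to *Npdc1*, a neighbour on the same strand that fell by 3.23 on the log2 scale (SE 0.39). In the positions deposited with the counts, however, *Entpd2* does not overlap *Npdc1*, which lies on chr2:25293062-25299505.

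*Thy1* encodes CD90, a surface glycoprotein by which portal fibroblasts and other fibroblasts are sorted (chr9:43954681-43959876, plus strand). Its normalized counts were 33.7, 2.07, 0, 3.15 and 9.07 in hypHSC 1 to 5 and 0, 18.7, 0, 2.57 and 0 in qHSC 1 to 5. It was above the floor in 2 hypHSC libraries and 1 qHSC library, at no more than 25 and 22 reads. A difference was not detectable at this depth (exact two-sided permutation p = 0.349).

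*Clec3b* encodes tetranectin, a plasminogen-binding lectin of the matrix made by adventitial fibroblasts (chr9:122980011-122986495, plus strand). It had 37.7, 3.11, 0, 12.6 and 16.6 normalized counts in hypHSC 1 to 5, and 0, 4.26, 0, 0 and 0 in qHSC 1 to 5. Thus 3 hypHSC libraries were above the floor, whereas qHSC 2, with 5 reads, was the only qHSC library with any. The groups overlapped, and the exact two-sided permutation p was 0.0873.

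Among the mesothelial genes, *Dmkn*, *Slpi* and *Lrrn4* rose, and *Msln* and *Upk3b* were detected in some hypHSC libraries at low counts. *Dmkn* encodes dermokine, a secreted protein known from epithelia (chr7:30463180-30480491, plus strand). Its normalized counts were 32.3, 35.2, 48.2, 65.0 and 127 in hypHSC 1 to 5 and 0, 5.96, 6.30, 0 and 0 in qHSC 1 to 5. All hypHSC libraries were above all qHSC libraries, in 3 of which no read was counted. The mean was 61.6 ± 38.8 against 2.45 ± 3.36 normalized counts (SD, n = 5 each), with a log2 fold change of 4.65 (SE 0.80, limma adjusted p = 0.000624; exact two-sided permutation p = 0.00794). A gene on the opposite strand, *Gm72787*, shares 13.4% of the exon bases of *Dmkn*, and reads of both strands were counted together.

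*Slpi* encodes an inhibitor of neutrophil elastase and related serine proteases that is secreted by epithelia and phagocytes (chr2:164195991-164198427, minus strand). It was at 404, 740, 218, 109 and 113 normalized counts in hypHSC 1 to 5, and at 196, 2.56, 2.36, 33.4 and 17.2 in qHSC 1 to 5. The qHSCs were widely spread, and qHSC 1 exceeded hypHSC 4 and hypHSC 5. The mean was 317 ± 265 against 50.4 ± 82.6 normalized counts (SD, n = 5 each), with a log2 fold change of 3.82 (SE 1.07, limma adjusted p = 0.0123; exact two-sided permutation p = 0.0238). In the GENCODE annotation 23.8% of the exon bases of *Slpi* overlap *Matn4* or *Mir7678* on the same strand, and *Matn4* was at 0 in all hypHSCs. The deposited position of *Slpi* does not overlap that of *Matn4* (chr2:164231313-164247080). Without qHSC 1 the log2 fold change was 4.70, and without qHSC 3 it was 3.23, with the call kept in both. *Slpi* was not called by edgeR (2.67, adjusted p = 0.0650) or with the hypHSCs at 12 weeks only (3.03, limma adjusted p = 0.0776), within a range of 0.00798 to 0.0776 over the alternatives other than leaving out a library.

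Most of the phagocyte markers looked at were also higher in hypHSCs. The 12 macrophage and Kupffer cell genes were summed to 977936 to 1365712 normalized counts in hypHSCs and 4571 to 127757 in qHSCs. Of the 12, 9 were called higher and 0 lower, beside 17.8% and 21.7% of all genes tested. *Clec4f*, *Marco* and *Timd4* were not called, with log2 fold changes of 1.15 (SE 0.94), 1.37 (SE 0.73) and -3.14 (SE 1.40). *Timd4* thus went the other way. In qHSC 1 to 5 the macrophage sum was 58143, 4571, 9139, 127757 and 8275 normalized counts. The 10 neutrophil genes were summed to 2086 to 8493 normalized counts in hypHSCs, highest in hypHSC 2, where *Slpi* was also highest. In qHSC 1 to 5 the neutrophil sum was 136, 18.7, 62.2, 425 and 14.2 normalized counts. Both sums were thus highest in qHSC 4, followed by qHSC 1, whereas *Slpi* was highest in qHSC 1, followed by qHSC 4. Of the neutrophil genes, 6 were tested and 5 were called higher, beside 17.8% of all genes tested. *S100a9* and *Retnlg* passed the filter only through their values in hypHSCs, and *S100a8* and *Mmp8* mainly so. *Retnlg*, *Camp* and *Ngp* were at 0 in all qHSCs. In hypHSCs, *Camp* had reads in hypHSC 1 only and *Ngp* in hypHSC 1 and 2 only. The part of macrophages and neutrophils in the rise of *Slpi* was not tested.

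*Lrrn4* encodes a leucine-rich repeat membrane protein used as a mesothelial marker (chr2:132707567-132722812, minus strand). Its normalized counts were 181, 105, 111, 206 and 593 in hypHSC 1 to 5 and 53.4, 41.8, 109, 72.7 and 77.9 in qHSC 1 to 5. The groups touched, since hypHSC 2 was just below qHSC 3, and hypHSC 5 stood above the other hypHSCs. The mean was 239 ± 203 against 71.0 ± 25.9 normalized counts (SD, n = 5 each), with a log2 fold change of 1.49 (SE 0.49, limma adjusted p = 0.0273; exact two-sided permutation p = 0.0159). This call was lost without hypHSC 4 (1.47), qHSC 1 (1.41) or qHSC 2 (1.32), at limma adjusted p values of 0.0523, 0.0603 and 0.0664, and the range with each library left out was 0.0194 to 0.0664. It was also lost on scaling to an equal total per library (1.14, limma adjusted p = 0.0602) or to *Hprt*, *Pgk1* and *Actb* (0.56, limma adjusted p = 0.428). These scalings moved the median log2 fold change of all genes from -0.20 to -0.54 and -1.13. In the GENCODE annotation 19.2% of the exon bases of *Lrrn4* overlap other genes on the opposite strand, *Crls1* among them, and reads were counted without regard to strand. *Crls1* had a log2 fold change of 1.10 (SE 0.52, limma adjusted p = 0.101).

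*Msln* encodes mesothelin, a surface protein of mesothelial cells (chr17:25967587-25973354, minus strand). It was at 88.9, 24.9, 0, 31.5 and 15.1 normalized counts in hypHSC 1 to 5, and at 0, 1.70, 0, 0 and 0 in qHSC 1 to 5. It was above the floor in 4 hypHSC libraries and in none of the qHSCs, where 2 reads in qHSC 2 were the only ones. Against a floor of 3 reads per qHSC library, the mean was at least 12.9-fold higher in hypHSCs, although hypHSC 3 had no read (exact two-sided permutation p = 0.0476). *Msln* was called higher when no filter on low values was applied, with limma (adjusted p = 0.0134), DESeq2 (adjusted p = 0.000355) and edgeR (adjusted p = 0.0112), for which 14.8%, 17.2% and 15.8% of 19373 genes were called higher. In these fits 6, 7 and 5 of the 10 members were called higher and 0 lower, while 17.5%, 16.6% and 14.2% of genes were called lower.

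*Upk3b* encodes a uroplakin, a membrane protein of urothelium and mesothelium (chr5:136067348-136075341, plus strand). Its normalized counts were 0, 33.1, 0, 16.8 and 16.6 in hypHSC 1 to 5 and 0, 1.70, 0, 0 and 0 in qHSC 1 to 5. It was above the floor in 3 hypHSC libraries and in no qHSC library, and its mean was at least 5.35-fold higher than the floor of the qHSCs (exact two-sided permutation p = 0.167). With no filter on low values it was called by DESeq2 (adjusted p = 0.0344) but not by limma (adjusted p = 0.0899) or edgeR (adjusted p = 0.0577). Neither *Thy1* nor *Clec3b* was called by any of these 3 tests, at adjusted p values of 0.427, 0.653 and 0.629 for *Thy1* and 0.0543, 0.0663 and 0.105 for *Clec3b* with limma, DESeq2 and edgeR.

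**Figure D2:**
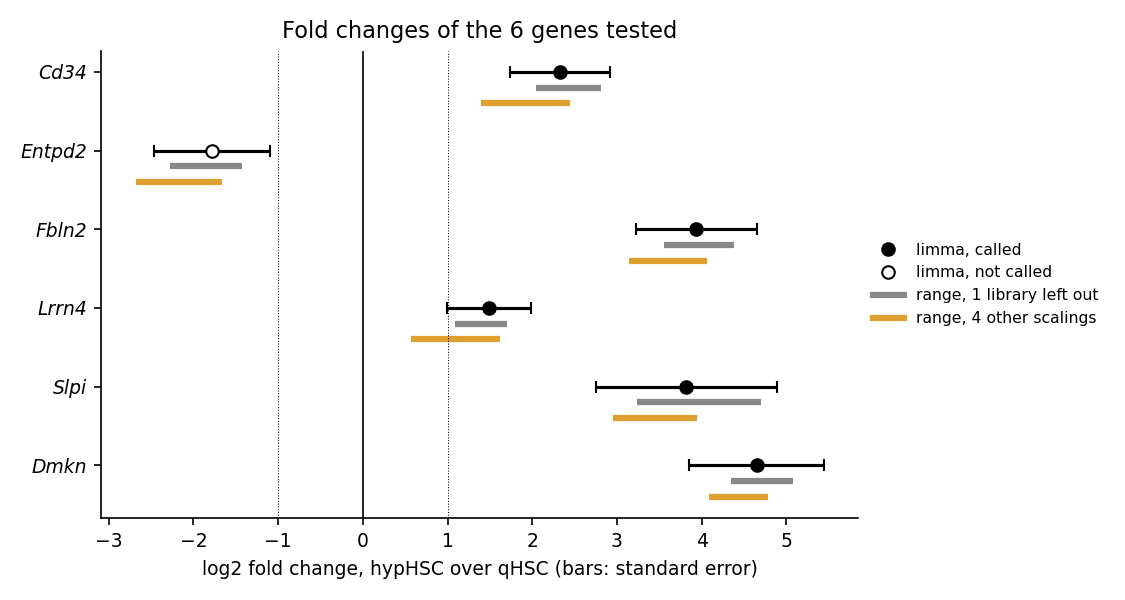
Log2 fold changes of the 6 members tested, hypHSC over qHSC, with the limma standard error as bars. Filled points were called and the open point (*Entpd2*, -1.78) was not, grey lines give the range with each library left out, and orange lines the range over 4 other scalings of the libraries, which for *Lrrn4* reached down to 0.56.

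Levels of different genes were compared as FPKM (reads scaled to exon length and library depth), on which scale the members were low in both groups. In hypHSCs *Slpi* had the highest level, 6.58 ± 5.56 FPKM (SD, n = 5), and ranked 3004 among the genes with a symbol and a GENCODE exon length. *Cd34* followed at 0.911 ± 0.564 FPKM, *Lrrn4* at 0.659 ± 0.488 and *Dmkn* at 0.654 ± 0.346 FPKM, which did not differ beyond their spread. *Fbln2*, *Entpd2*, *Clec3b*, *Msln*, *Upk3b* and *Thy1* ranged from 0.311 down to 0.0504 FPKM. In qHSCs *Slpi* was also first at 1.31 ± 2.17 FPKM, followed by *Entpd2* at 0.752 ± 0.270 FPKM, with overlapping spread. *Lrrn4* and *Cd34* had 0.266 ± 0.106 and 0.204 ± 0.117 FPKM, and the other 6 members were at no more than 0.0355 FPKM. *Entpd2* was the second of the 10 in qHSCs and the sixth in hypHSCs, and *Cd34* and *Lrrn4* also changed places, while the places of the lowest members rest on few reads.

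The hypHSC libraries also differed among themselves. In hypHSC 1 to 5, 9, 8, 6, 9 and 10 members were above the floor, compared with 4, 7, 5, 5 and 4 in qHSC 1 to 5. Of the 10 members, 6 were highest of their group in hypHSC 1, while *Upk3b* and *Slpi* were highest in hypHSC 2 and *Lrrn4* and *Dmkn* in hypHSC 5. In the qHSCs, qHSC 2 had the highest value of 6 members, 5 of which were at no more than 22 reads there.

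Both hypHSC libraries at 13 weeks were above the 3 at 12 weeks for *Cd34*, *Fbln2* and *Slpi*, a pattern seen in 15.6% of all genes tested. For *Dmkn* both were below the 3 at 12 weeks, as for 6.34% of genes tested. With 2 against 3 libraries the smallest two-sided exact permutation p is 0.2, so the weeks were not tested. The share of mitochondrial reads, 12.8% and 7.27% at 13 weeks against 2.21% to 3.42% at 12 weeks, moved with them. So did the sums of neutrophil (5502 and 8493 against 2086 to 3355 normalized counts) and cholangiocyte genes (7665 and 1903 against 864 to 1854). The macrophage (1281656 and 1365712 against 977936 to 1209098) and endothelial sums (1004 and 1092 against 635 to 927) did so too. The T cell and hepatocyte sums did not. The part of mitochondrial reads and of these cell types in the order of the libraries was not tested.

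After subtraction of the group means, the levels of some members varied together over the 10 libraries. The correlation was highest between *Thy1* and *Clec3b* (Pearson r = 0.89, Spearman rho = 0.84), followed by *Clec3b* and *Msln* (r = 0.88). Without the 2 libraries farthest from the median of *Thy1*, r of *Thy1* and *Clec3b* was 0.79. These genes rest on few reads, and hypHSC 1 had the highest value of all 3. The most negative correlation was that of *Slpi* and *Dmkn* (r = -0.85, rho = -0.87, and r = -0.86 without the 2 libraries farthest from the median of *Slpi*). Thus the libraries of a group with more *Slpi* tended to have less *Dmkn*, although both genes rose in hypHSCs. In the qHSCs this too rests on few reads, at most 8 for *Dmkn* in any library and 3 for *Slpi* in qHSC 2 and 3.

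For each member tested, the genes that followed it most closely within the groups were searched among the 10791 or 10792 other genes tested whose mean reached 100 normalized counts. *Cd34* was followed by *Dkk3* (Pearson r = 0.97), *Vcam1* (0.97) and *H2-T24* (0.96). *Dkk3* encodes a secreted Wnt modulator and *Vcam1* an adhesion molecule, and both had a lower mean in hypHSCs than in qHSCs, opposite to *Cd34*. *Lrrn4* was followed by *Luc7l3*, *Malat1* and *Lsm7* (0.97 each). *Malat1* is a nuclear noncoding RNA and *Luc7l3* and *Lsm7* belong to the splicing machinery, and all 3 were highest in hypHSC 5, as *Lrrn4* was. *Slpi* was followed by *Arhgap22* (0.96), *Gjb1* (0.91) and *Sord* (0.89), *Fbln2* by *Kdm4b* (0.92), *Ylpm1* (0.90) and *Itpkc* (0.90), *Entpd2* by *Ddx24* (0.93), *Zmat2* (0.92) and *Stx4a* (0.92), and *Dmkn* by *Cd200r4* (0.89), *Dsn1* (0.89) and *Eaf1* (0.89). All these correlations share the libraries and their depth, and they are given as a description with n = 10.

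Other genes of the same cell types were then examined, 15 for portal fibroblasts and 15 for the mesothelium. Of the portal fibroblast genes, 13 were tested, of which 6 were called higher, 4 lower and 3 not called, with a median log2 fold change of 2.47. Over all genes tested, 17.8% were called higher and 21.7% lower, with a median of -0.20. The filter kept *Gli1*, *Col15a1* and *Mgp* only or mainly through their values in hypHSCs, with 0, 1 and 1 qHSC libraries at 10 normalized counts, which moves the count and the median of the list upward. Those called higher were *Gli1*, *Dpt*, *Mfap4*, *Col15a1*, *Igfbp6* and *Mgp*. *Mgp*, an inhibitor of calcification, reached 492 ± 441 normalized counts in hypHSCs against 7.61 ± 9.31 in qHSCs (SD, n = 5 each), a log2 fold change of 6.15 (SE 0.84, limma adjusted p = 0.000124). *Col15a1*, a collagen of basement membrane zones, rose from 4.71 ± 9.71 to 159 ± 109 normalized counts (log2 fold change 5.83, SE 0.95). *Mfap4*, a microfibril protein, rose by 4.43 on the log2 scale (SE 1.22), *Igfbp6*, which binds insulin-like growth factors, by 4.09 (SE 0.82), and *Dpt*, encoding dermatopontin, by 2.47 (SE 0.68).

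Those called lower were *Efemp1*, *Gas1*, *Cd248* and *Ly6a*. *Efemp1* encodes fibulin-3, a relative of *Fbln2*, and it reached 1489 ± 780 in hypHSCs against 52762 ± 8460 normalized counts in qHSCs (SD, n = 5 each), a fall by 5.26 on the log2 scale (SE 0.28, limma adjusted p = 1.96e-07). *Fbln2* and *Efemp1* were thus separated between the groups in opposite directions. *Fbln1*, another fibulin gene of the list, and *Pi16* were too low to be tested. *Fbln1* was at 57.9, 72.5, 11.6, 12.6 and 0 normalized counts in hypHSC 1 to 5 and at 0 to 3.15 in qHSCs. *Pi16* was at 131, 7.25, 17.5, 26.2 and 43.9 in hypHSC 1 to 5 and at 0 to 7.67 in qHSCs. *Gas1*, a hedgehog co-receptor, fell by 2.57 (SE 0.48), *Cd248*, encoding endosialin, by 2.52 (SE 0.83) and *Ly6a*, encoding Sca-1, by 2.05 (SE 0.65). *Eln*, encoding elastin, *Dpp4*, a peptidase, and *Mfap5* were not called, with log2 fold changes of -0.68 (SE 0.73), 0.59 (SE 0.52) and 3.44 (SE 1.42).

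Of the 15 other mesothelial genes, 7 were tested, of which 5 were called higher, 0 lower and 2 not called, with a median log2 fold change of 3.80, beside the same 17.8%, 21.7% and -0.20 over all genes tested. Here too *Gpm6a*, *Krt19* and *Aldh1a2* passed the filter only or mainly through hypHSCs, with 0, 0 and 1 qHSC libraries at 10 normalized counts. *Krt19*, *Krt8* and *Krt18*, keratins of simple epithelia, rose by 6.16 (SE 0.92), 3.80 (SE 0.58) and 3.53 (SE 0.43) on the log2 scale. *Gpm6a*, a membrane glycoprotein, rose from 0.702 ± 0.962 to 134 ± 128 normalized counts (SD, n = 5 each), and *Aldh1a2*, a retinaldehyde dehydrogenase, was the fifth gene called higher. *Wt1*, a transcription factor of the mesothelium that stellate cells also express, was at 148 ± 38.3 in hypHSCs against 104 ± 31.2 normalized counts in qHSCs (SD, n = 5 each) and was not called (log2 fold change 0.53, SE 0.35). Neither was *Bcam*.

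**Figure D3:**
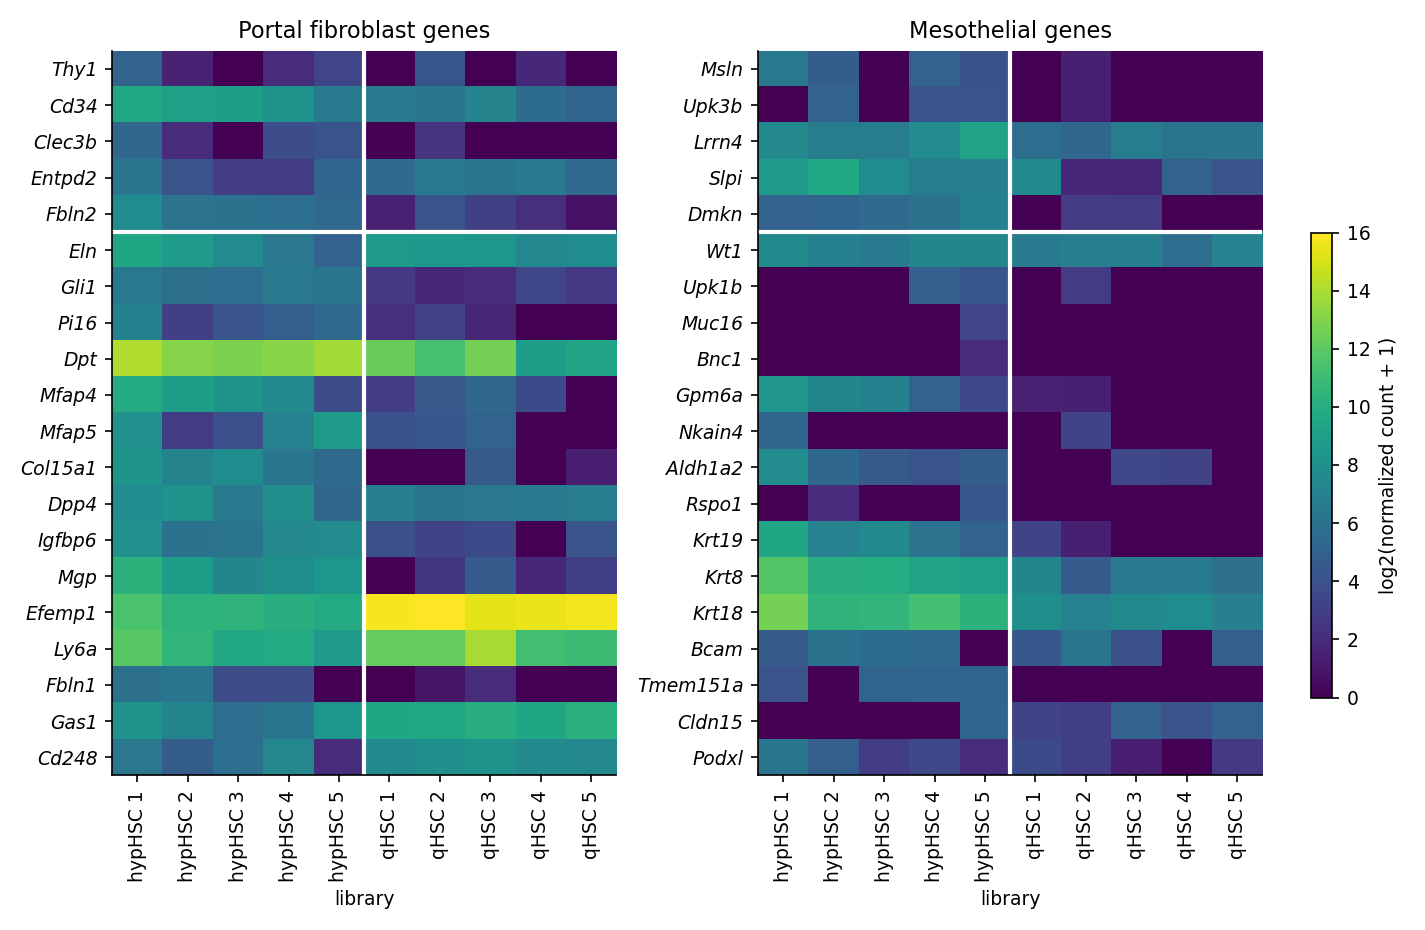
Log2(normalized count + 1) of each portal fibroblast gene (left) and mesothelial gene (right) in each library, on a colour scale from 0 to 16. The white horizontal line separates the 5 members (above) from the 15 other genes (below), the vertical line separates hypHSCs (left) from qHSCs (right), and *Efemp1* is the brightest gene in qHSCs.

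The 8 other mesothelial genes that were too low to be tested varied from library to library. *Tmem151a* was at 16.2, 0, 34.1, 35.7 and 34.8 normalized counts in hypHSC 1 to 5 and at 0 in all qHSCs. *Muc16*, the mucin that mesothelin binds, was at 9.07 normalized counts in hypHSC 5 and at 0 in the other 9 libraries, and *Bnc1* was below the floor in every library. *Upk1b* had 29.4 and 18.2 normalized counts in hypHSC 4 and 5, 5.96 in qHSC 2 and 0 elsewhere. *Rspo1* was above the floor in hypHSC 5 only, at 18.2 normalized counts, and was at 0 in all qHSCs. *Nkain4* had 37.7 normalized counts in hypHSC 1, 8.52 in qHSC 2 and 0 elsewhere. *Podxl* ranged from 3.02 to 78.2 normalized counts in hypHSCs and from 0 to 10.9 in qHSCs. *Cldn15* went the other way, with 36.3 normalized counts in hypHSC 5, 0 in the other hypHSCs and 6.82 to 32.3 in qHSCs. Of the 20 mesothelial genes, members included, only 3 members and 7 others were tested. The 8 called higher were the 3 keratins, *Gpm6a*, *Aldh1a2*, *Slpi*, *Dmkn* and *Lrrn4*, beside 17.8% of all genes tested. Of these, *Krt19*, *Gpm6a*, *Dmkn* and *Aldh1a2* passed the filter only or mainly through their values in hypHSCs.

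Keratins are also made by cholangiocytes, the epithelial cells of the bile ducts around which portal fibroblasts lie, and *Krt19* stands in both lists. The 10 cholangiocyte genes were summed to 7665, 1903, 1854, 935 and 864 normalized counts in hypHSC 1 to 5 and to 6.29 to 59.8 in qHSCs. All 5 cholangiocyte genes tested were called higher, 7 of the 10 were above the floor in all hypHSCs, and *Cldn4*, *Cftr* and *Prom1* were at 0 in all qHSCs. hypHSC 1, with the highest cholangiocyte sum, also had the highest *Thy1*, *Cd34*, *Clec3b*, *Entpd2*, *Fbln2* and *Msln* of the hypHSCs. The part of cholangiocytes in the levels of these members was not tested.

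Other cell types were measured for comparison. T cell genes, 7 of 10 of which were found by symbol, were summed to 45.6 to 326 normalized counts in hypHSCs and 17.9 to 126 in qHSCs, and 0 of the 2 tested were called. None of the 10 hepatocyte genes was called, with sums of 15009 to 221275 normalized counts in hypHSCs, highest in hypHSC 5, and 28965 to 116461 in qHSCs. Of the genes of quiescent HSCs, 13 of 14 were called lower, as were 8 of 10 genes shared by fibroblasts in general. Of 12 genes of activated HSCs and myofibroblasts, 3 were called higher and 4 lower. Among all genes tested, 17.8% were called higher and 21.7% lower. *Fbln2* and *Cd34* thus rose while most genes common to fibroblasts were lower in hypHSCs.

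**Figure D4:**
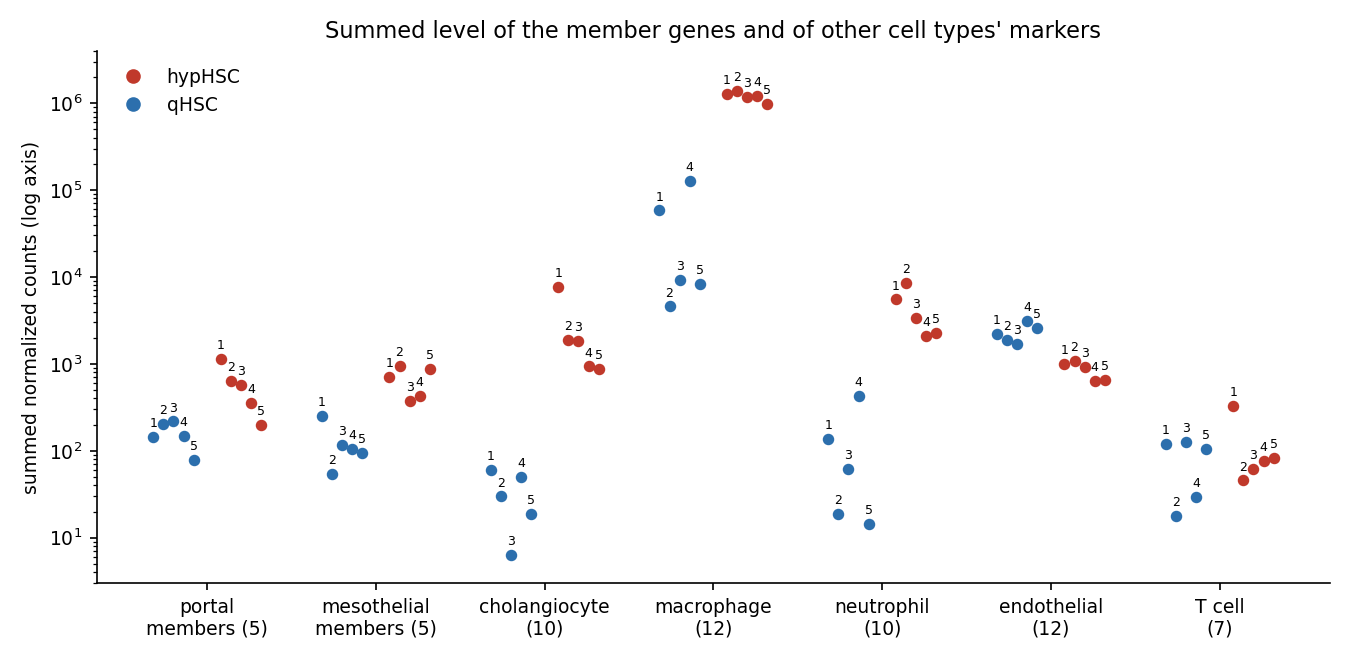
Summed normalized counts (log axis) of the 5 portal fibroblast and 5 mesothelial members and of the genes of other cell types in each library, with the number of genes in brackets. Points are libraries numbered by replicate (blue for qHSC, red for hypHSC). The sums of the mesothelial members and of the macrophage, neutrophil and cholangiocyte genes are higher in every hypHSC library than in every qHSC library. The sums of the portal members overlap.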

How the data were processed

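RNA was reverse transcribed from an oligo-dT primer, sequenced in read pairs, mapped by the authors to mm39 with STAR 2.7.5a and counted per gene with featureCounts (Subread 1.5.0) without regard to strand. The deposited signal is this count divided by a DESeq2 size factor. Multiplying each column by its factor gave whole reads for 100% of values, and these recovered reads were used for FPKM, DESeq2 (1.42.0) and edgeR (4.0.16). FPKM used GENCODE exon lengths, so genes and gene models may differ from those of the authors.

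Genes that had a symbol and reached 10 normalized counts in 5 or more of the 10 libraries were compared as log2(normalized count + 1) with limma (3.58.1, trended variance, R 4.3.3) and Benjamini-Hochberg adjustment over all 14630. Fold changes are differences of group means on that scale, which can understate those of low genes. For others they were larger in size than with DESeq2, as for *Slpi* (3.82 against 2.65) and *Entpd2* (-1.78 against -1.30). Single genes were compared by exact permutation over 252 arrangements (scipy 1.17.1). All fits were tested on simulated data. Named genes are the members, genes of the wider lists whose mean reached 100 normalized counts in a group, and the 3 genes closest to each member tested. *Gli1*, *Aldh1a2*, *Bcam*, *Muc16*, *Bnc1*, *Upk1b*, *Rspo1*, *Tmem151a*, *Nkain4*, *Podxl*, *Cldn15*, markers of other cell types and the genes overlapping members were named after their values were seen. So were *Fbln1* and *Pi16*. Members and lists were chosen with earlier results of these data known. Alternatives changed the pseudocount, filter, scaling, test, block and libraries, and DESeq2 and edgeR with no filter were added after seeing the data.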

Additional observations from a re-analysis of the deposited data

Results flagged for a closer look

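The 10 members were looked at for a library far from the others in each group. Of 20 groups in all on the log2 scale, 4 stood out. The cutoff flags about 1 in 20 by chance only where values are normally distributed, so that rate cannot be set against these 4. *Fbln2* in hypHSC 1 (217 normalized counts against 43.9 to 68.3) was separated from the next library by a gap of 0.7246 of the range of the hypHSCs. *Clec3b*, *Msln* and *Upk3b* in qHSC 2 were the only qHSC values above 0, at 5, 2 and 2 reads. With every other value at 0, the gap was the whole range (1.0) whatever the number of reads.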

How the results depend on the processing

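The number of members called higher, 5, was 3 when genes had to reach a mean of 100 normalized counts, under which only 3 members were tested, and 3 with the hypHSCs at 12 weeks only. With each library left out it was 4 to 5. The number called lower, 0 (limma), was 1 with a pseudocount of 10, with the same total, with *Hprt*, *Pgk1* and *Actb* and with 12 weeks only, and 0 to 1 with each library left out. In each case this was *Entpd2*, with log2 fold changes of -1.30, -2.12, -2.68 and -2.39. DESeq2 and edgeR called 0 members lower. For the 30 other genes, 11 called higher became 6 with that filter, under which 13 were tested. With each library left out, 11 to 12 were called higher and 3 to 4 lower. The direction of *Cd34*, *Entpd2*, *Fbln2*, *Lrrn4*, *Slpi* and *Dmkn* was kept in every alternative, and *Fbln2* and *Dmkn* were called in all 25 in which each was tested. The replicate number as a block gave 5 members higher, 0 lower, and 11 and 4 of the other genes. Same-numbered libraries correlated at 0.0082 to 0.1293, so that they share only a number, and 1 of 5 numbers matched itself best. Calls over all genes were 2602 higher and 3177 lower, 2020 and 4222 with the same total, and 1468 and 6986 with *Hprt*, *Pgk1* and *Actb*. Depth limits what can be said of *Thy1*, *Clec3b*, *Msln* and *Upk3b*.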
